A study of Homo sapiens with 8 samples.

Results

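A total of 2903 accessible chromatin sites were listed in both libraries of UV-irradiated wild-type (WT) cells and in none of the other 6 libraries, out of 547779 sites found in at least 1 library (0.53%). The members were selected on measured values: each site is a stretch of the genome formed by merging the accessible regions of all 8 libraries, with touching regions joined, and a library held a site where any of its regions overlapped it. The presence of a region in the 2 WT lists and its absence from the other 6 therefore define the set, and the share of 0.53% only restates that choice. No test was run on these presence calls.

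Chromatin accessibility was profiled by Omni-ATAC-seq, in which the transposase Tn5 cuts and tags open DNA in isolated nuclei, in the U2OS line, which derives from a human osteosarcoma. The 8 libraries fell into 4 groups of 2 biological replicates: WT cells without UV (WT noUV), WT cells 3 h after UV-C irradiation at 20 J/m2 (WT 3h), and the same 2 treatments of ASH1L knockout cells (ASH1L-/- noUV and ASH1L-/- 3h). The ASH1L-/- cells carry CRISPR/Cas9 deletions inside the ASH1L gene. All cells, irradiated or not, were treated with DNase before harvest to remove DNA from dead or damaged cells. The labels name 1 knockout genotype, so the loss of ASH1L and any other difference of that line cannot be told apart. Sites open only in WT 3h cells are the candidates for opening that needs both UV and ASH1L, which is the question the comparison addresses.

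UV-C light joins neighbouring pyrimidines into dimers, which global-genome nucleotide excision repair removes after XPC has found them in chromatin. ASH1L is a trithorax-group histone methyltransferase that works together with MRG15. UV also activates stress kinases that act on AP-1, a family of Jun and Fos dimers whose binding sites are common in the enhancers of mesenchymal cells.

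The site with the highest rank among the 2903 lay in an intron of NFKB1, the gene for the p105 and p50 subunits of NF-kappaB. Members were ranked by the lower of their 2 percentiles of fold enrichment within the WT 3h lists. Its 300 bases around the strongest WT 3h summit are shown because it ranks first and holds an AP-1 match (TGANTCA, both strands), which is in capitals. The sequence is the + strand of hg38, at chr4:102564317-102564616.
site1 (NFKB1 intron): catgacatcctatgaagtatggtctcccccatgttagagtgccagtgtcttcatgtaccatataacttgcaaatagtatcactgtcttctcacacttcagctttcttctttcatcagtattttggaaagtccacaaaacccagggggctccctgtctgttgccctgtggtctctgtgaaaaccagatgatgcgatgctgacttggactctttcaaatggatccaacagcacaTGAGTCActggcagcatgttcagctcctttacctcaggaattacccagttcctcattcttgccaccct

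Among the first 12 members by rank, 5 more held an AP-1 match, and the stretch around the match nearest to the summit is shown for each to let the flanks be compared. The capitals again mark the match, and the stretch of site11 is shorter because its match lies at the edge of the window. The positions on the + strand of hg38 are chrX:64536968-64537008, chr14:54638209-54638249, chr9:86830460-86830500, chr6:17431645-17431685 and chrX:66919705-66919730.
site5 (intergenic): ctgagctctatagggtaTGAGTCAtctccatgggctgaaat
site6 (SAMD4A intron): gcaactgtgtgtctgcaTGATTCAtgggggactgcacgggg
site7 (intergenic): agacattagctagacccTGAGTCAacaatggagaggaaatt
site10 (CAP2 intron): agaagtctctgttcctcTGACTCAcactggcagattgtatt
site11 (intergenic): aaTGACTCAttgtaatcttgggaaag

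The libraries listed between 158198 and 220783 accessible regions each. The mean pileup of reads over the genome, recovered from the fold enrichment and p-value of each region, was 2.53 and 2.67 in the WT 3h libraries, 2.45 and 2.81 in the ASH1L-/- 3h libraries, 2.10 and 1.74 in the WT noUV libraries, and 5.87 and 1.39 in the ASH1L-/- noUV libraries. The 4 UV libraries were thus close in depth, and the 4 unchallenged ones were not. Promoters of 6 to 7 of 7 mesenchymal marker genes carried a region in each library, but so did those of 3 to 4 of 4 epithelial markers and 0 to 2 of 4 blood markers. TWIST1, a mesenchymal marker, had a promoter region in 2 libraries while CDH1 and EPCAM had one in all 8, so these lists do not tell the lineages apart.

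Most of the 2903 sites were weak. Their fold enrichment over the local background had a median of 3.07 in WT 3h replicate 1 (quartiles 2.59 and 3.54, range 1.37 to 10.4) and 3.27 in replicate 2 (quartiles 2.72 and 4.08, range 1.43 to 12.2). All sites held by replicate 1 had a median of 3.68, and all those held by replicate 2 had a median of 5.21. In percentiles of each list the members stood at a median of 34.2 and 26. Only 215 members (7.41%) lay in the upper part of both lists, above percentile 50, and 6 lay above percentile 75 in both.

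The number of reads behind a member was small. The summit pileup, which is the height of stacked reads at the highest point of a region, had a median of 12 in replicate 1 (quartiles 10 and 15) and 13 in replicate 2 (quartiles 10 and 20). Sites held by all 4 UV libraries and by no unchallenged library had a median pileup of 16 and 24 in the same 2 libraries. A false discovery rate (q-value) of at most 0.05 was met in both lists by 2197 members (75.7%), a rate of at most 0.01 by 1581 (54.5%), and 77 members (2.65%) missed 0.05 in both. The summits of the 2 replicates lay within 50 bp of each other at 1563 members (53.8%).

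The lists end at a −log10 p of 2, and this end of the lists is the threshold behind the choice of members. Just inside it, 275 members (9.47%) had a −log10 p below 2.5 in at least 1 WT 3h list, with a lowest value of 2.01 in either. Just outside it, 4375 sites were held by the WT 3h pair and exactly 1 other library, and in 273 of them the region of that library had a −log10 p below 2.5.

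The share of sites that no other library held fell steeply with strength. Both WT 3h libraries held 104921 sites, of which 60324 (57.5%) were also held by all 6 other libraries and 2903 (2.77%) by none. Below percentile 10 in the weaker of the 2 lists, 14.2% of 5677 sites were members. Between percentiles 30 and 40 the share was 5.56% of 8218 sites, and between 50 and 75 it was 0.599% of 34872. Above percentile 75, where 33910 sites lay, 6 were members. Of the sites above percentile 75, 99.9% were held by at least 1 ASH1L-/- 3h library and 99.5% by at least 1 unchallenged library, so nearly all of them were listed without UV as well.

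**Figure D1:**
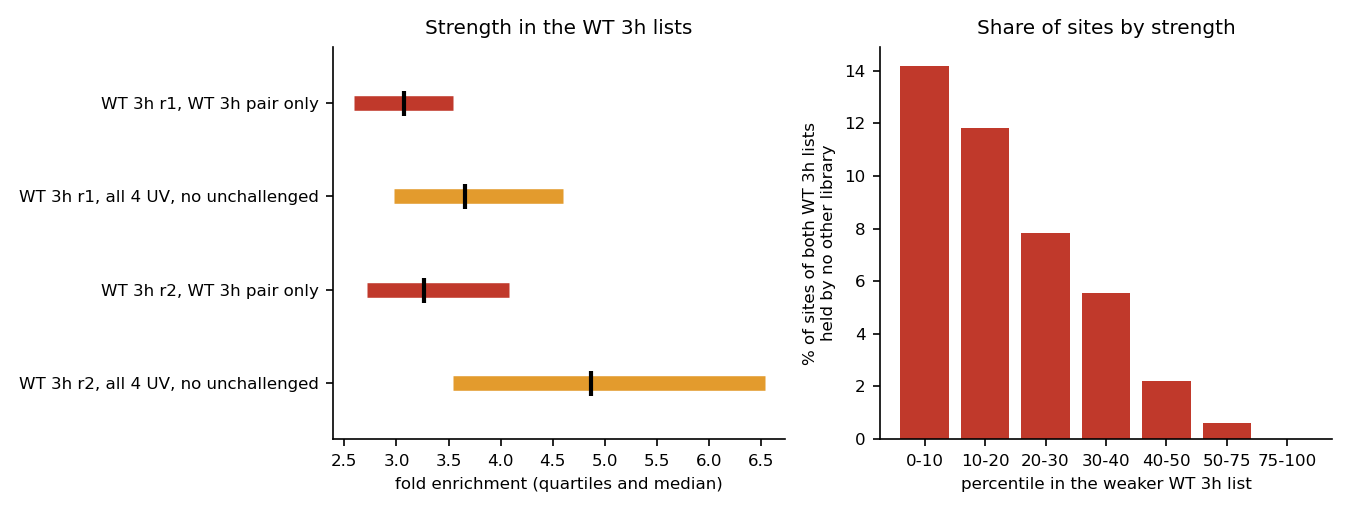
Left, fold enrichment of the sites held only by the WT 3h pair (red) and of those held by all 4 UV libraries and no unchallenged one (orange) in each WT 3h list, with bars from the lower to the upper quartile and a black tick at the median. Right, percent of the sites of both WT 3h lists that no other library held, by percentile in the weaker list. The red medians of 3.07 and 3.27 lie below the orange ones of 3.66 and 4.86, and the share falls from 14.2% to nearly 0.

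The heights of the members were scaled to the depth of each other library. If a member had the same pileup and background per unit of depth elsewhere, it would reach the lower end of the lists in both ASH1L-/- 3h libraries for 2889 of the 2903 members (99.5%) and in all 6 libraries for 2476 (85.3%). The shallowest library, ASH1L-/- noUV replicate 2, would list 2477 (85.3%), and each of the other 5 between 97.0% and 100%. This scaling takes no account of counting error or of differences in the share of reads that fall into open chromatin, and the heights it starts from were selected for being listed in both WT 3h libraries. The part of depth and counting error in the absence of members from the other lists was not tested.

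The number of sites that 2 libraries shared exclusively was compared over all 28 possible pairs. The WT 3h pair ranked 8th with 2903 sites, in a range from 847 to 5007 with a median of 1957. The other replicate pairs held 3409 (ASH1L-/- 3h), 3632 (ASH1L-/- noUV) and 2656 (WT noUV), so the irradiated ASH1L-/- libraries shared more exclusive sites than the irradiated WT libraries did. The highest count, 5007, belonged to ASH1L-/- noUV replicate 1 with ASH1L-/- 3h replicate 2, which share the genotype but not the treatment.

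Pairs of UV libraries that mixed the genotypes gave the closest measure of what 2 irradiated libraries share without a common genotype. WT 3h replicate 1 shared 1143 exclusive sites with ASH1L-/- 3h replicate 1 and 1651 with replicate 2. WT 3h replicate 2 shared 1864 and 3665 with them. The WT 3h count lay inside this range, at 1.4 times its mean of 2080.75. One mixed pair exceeded it, and without ASH1L-/- 3h replicate 1 the ratio to the mixed pairs fell to 0.935.

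Libraries differ in how many sites they hold alone, from 18943 to 71727, and both WT 3h libraries were among the lowest 3 with 28944 and 18943. Set against the geometric mean of the single-library sites of its 2 members, the WT 3h pair ranked 2nd of 28 at 12.4%, between the mixed pair of WT 3h replicate 2 and ASH1L-/- 3h replicate 2 at 13.2% and the ASH1L-/- 3h pair at 10.9%. The 3 leading pairs were all pairs of UV libraries. With the same number of regions, those of lowest p, taken from each list, the WT 3h pair ranked 1st with 3301 sites. It ranked 4th with regions of q-value at most 0.05, 2nd at 0.01 and 6th above percentile 75 of fold enrichment. With regions up to 200 bp apart joined it ranked 10th. Its place among the pairs thus depended on the choice of regions, and the reason was not tested.

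**Figure D2:**
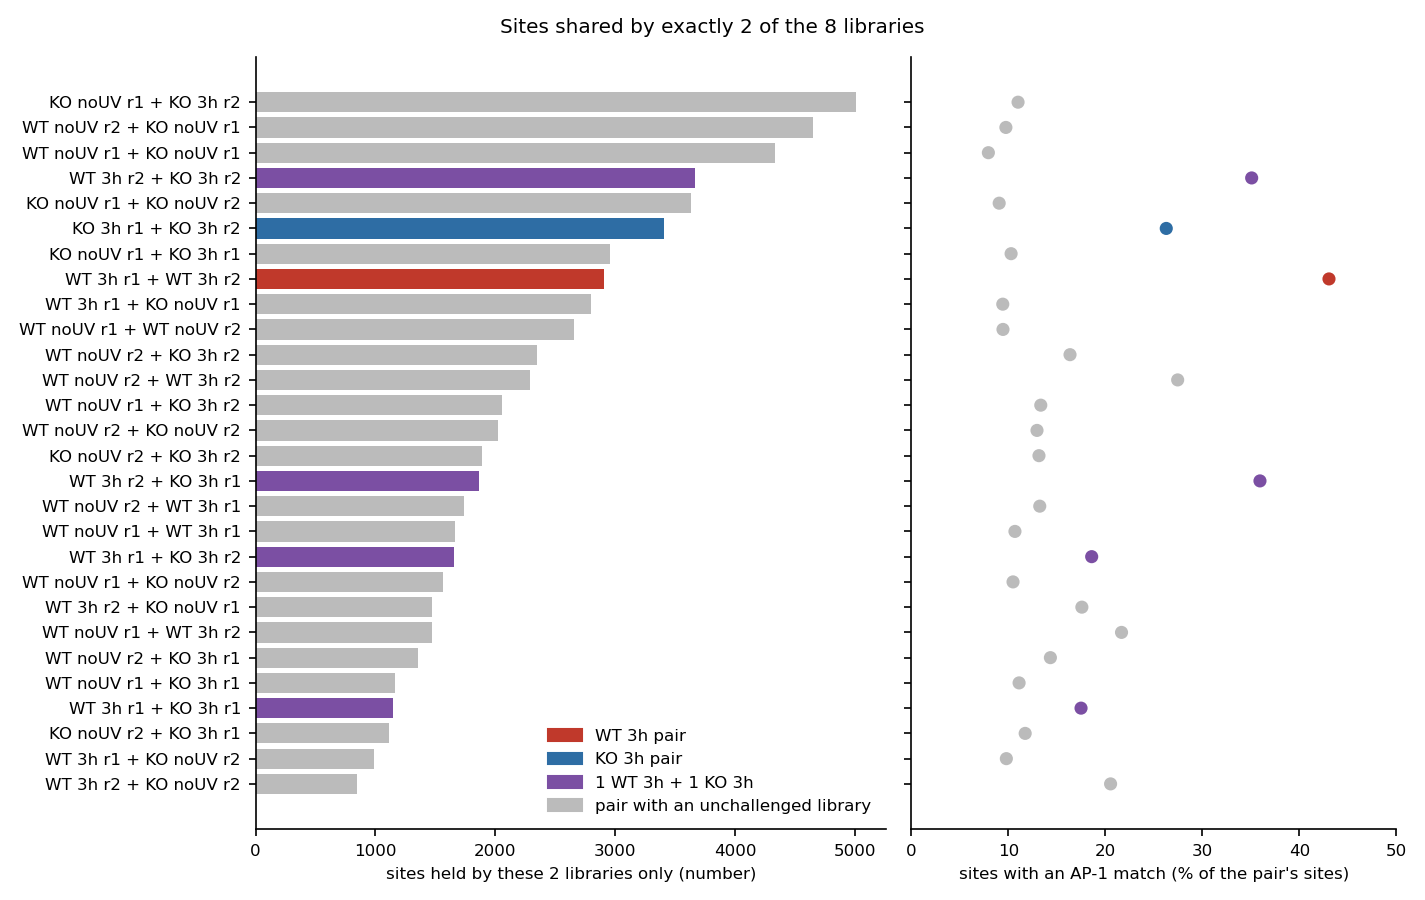
Left, number of sites held by exactly the 2 libraries named at each row. Right, percent of those sites with an AP-1 match within the 300 bp around the summit. r1 and r2 are replicates, KO is ASH1L-/-, red is the WT 3h pair, blue the ASH1L-/- 3h pair, purple the 4 mixed UV pairs and grey the pairs with an unchallenged library. The WT 3h pair is 8th in number with 2903 and 1st in AP-1 share with 43.1%.

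When the WT 3h pair shared a site with exactly 1 further library, that library was most often an irradiated ASH1L-/- one. ASH1L-/- 3h replicate 2 held 1530 such sites and replicate 1 held 993. The unchallenged WT libraries held 463 and 831, and the unchallenged ASH1L-/- libraries 357 and 201. Both ASH1L-/- 3h libraries lay above all 4 unchallenged libraries, and the same order was seen over all sites of the WT 3h pair, of which they held 87.5% and 90.3% against 71.6% to 80.5%. The third region was not a borderline one in most cases, with a median −log10 p between 3.85 and 4.55 and 4.97% to 9.24% of them below 2.5. Without ASH1L-/- 3h replicate 2 the members would number 4490.

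**Figure D3:**
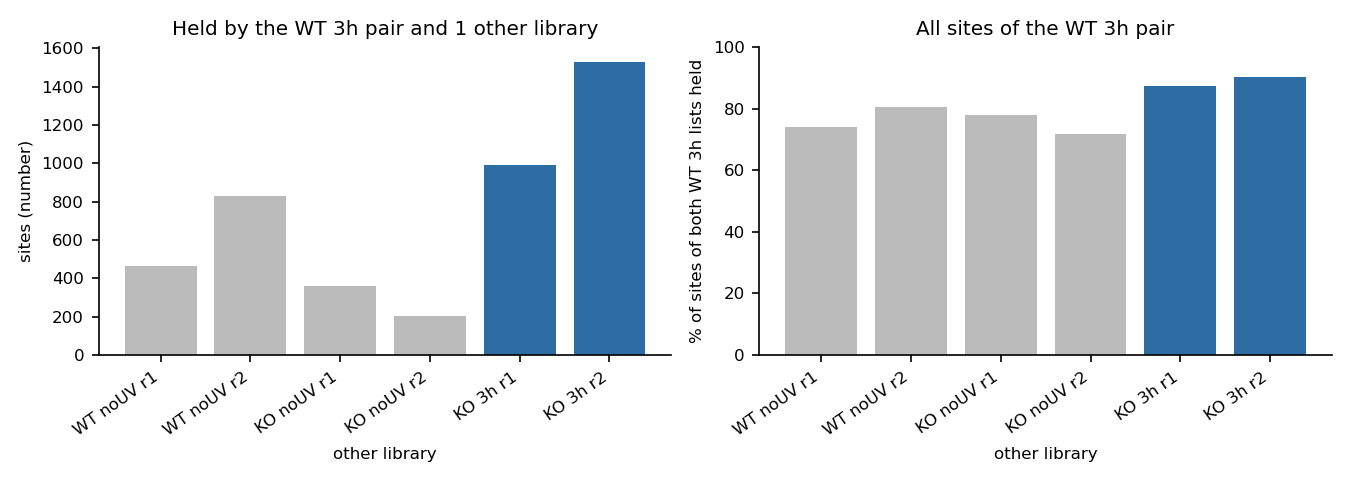
Left, number of sites held by the WT 3h pair and the 1 other library named on the horizontal axis. Right, percent of all sites of both WT 3h lists that this library held. The ASH1L-/- 3h libraries (blue) hold 993 and 1530 sites on the left, above the unchallenged libraries (grey) with 201 to 831.

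The same comparison was made from the side of the response to UV in WT cells. Of 14336 sites held by both WT 3h libraries and by neither WT noUV library, the 2903 members made up 20.2%. Another 2523 (17.6%) were also held by 1 ASH1L-/- 3h library and 3757 (26.2%) by both, with no unchallenged ASH1L-/- library. A region in an ASH1L-/- noUV library but in no ASH1L-/- 3h library was seen at 558 sites for 1 library and at 68 for both. More of the sites gained in WT cells were thus listed in both irradiated ASH1L-/- libraries than in neither.

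The rule leaves the members without a region in the other 6 libraries but does not fix how near one lies. A region of at least 1 of the other 6 libraries lay within 1 kb of 1326 members (45.7%). For single libraries the share of members with such a neighbour was 20.3% and 24.2% in ASH1L-/- 3h, 20.7% and 22.8% in WT noUV, and 22.1% and 17.8% in ASH1L-/- noUV. The mean was 22.3% for the 2 ASH1L-/- 3h libraries and 20.9% ± 2.2 (SD, n = 4) for the 4 unchallenged ones, a difference of 1.4 percentage points. An exact permutation test over these libraries (two-sided, p = 0.667) cannot go below 0.133 with 2 against 4 and so says nothing about whether they differ. The shares also move with the number of regions in a list, and sites shared by any 2 libraries had such a neighbour in 17.3% to 25.8% of cases. Relative to those sites, the members' share was 1.14 and 1.08 times as high in ASH1L-/- 3h, 1.03 and 1.07 times in WT noUV, and 0.858 and 1.03 times in ASH1L-/- noUV. On this scale both ASH1L-/- 3h libraries lay above the 4 unchallenged ones, by a margin of less than 0.01 at the closest.

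A site that all 8 libraries held lay within 1 kb of 280 members (9.65%), against 4.64% of the 64641 sites held by exactly 2 libraries, with median gaps of 12096 and 15436 bp. Most members lay far apart, with a median gap of 523838 bp to the next member and 72 gaps (2.5%) below 10 kb. They occurred in 549 of 601 windows of 5 Mb, with a median of 4 and at most 27 in a window. The window with 27, on chromosome 7, held 2319 sites, of which members made up 1.16%. At chr13:95000001-100000000 members were denser. There, 15 members made up 4.55% of 330 sites, against 0.53% of all sites. They were 10.9% of that window's sites of both WT 3h lists, against 2.77% over the genome.

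By the GENCODE annotation, 1409 members (48.5%, Wilson 95% interval 46.7 to 50.4, for counting error only) were intergenic, 1372 (47.3%) lay in gene bodies and 122 (4.20%) within 1 kb of the start of a protein-coding gene. All 547779 sites had 47.8%, 48.7% and 3.51% in the same classes, and the sites of the ASH1L-/- 3h pair had 52.4%, 45.6% and 2.02%. The promoter share was 4.46% for sites of exactly 1 WT 3h and 1 ASH1L-/- 3h library. For sites of all 4 UV libraries and no unchallenged one it was 4.60%, so both exceeded the members. With any annotated transcript start in place of the gene's start, the promoter share of the members was 9.99% and that of all sites 8.37%. Members were 370 bp wide in the median, against 340 bp for the ASH1L-/- 3h pair and 490 bp for sites of all 4 UV libraries. Their median distance to the nearest start was 49281 bp, against 67763 bp for the ASH1L-/- 3h pair and 58208 bp for all sites. It was 51925 bp for the mixed sites of 1 WT 3h and 1 ASH1L-/- 3h library and 51502 bp for sites of all 4 UV libraries.

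UV damage forms where pyrimidines are adjacent, but the members differed little from all sites in this respect. Dipyrimidines made up 56.8% of the dinucleotide steps in their windows and 56.3% in those of all sites, TT or AA steps 14.8% and 14.4%, and the GC share was 47.8% and 48.3%.

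Of the 12 motifs searched, AP-1 was the one in which the members stood farthest from all sites. A TGANTCA match occurred in the 300 bp around the summit of 1250 of the 2903 members (43.1%, Wilson 95% interval 41.3 to 44.9, for counting error only). Over all sites the share was 18.3%. The share was 26.3% for the ASH1L-/- 3h pair, 9.45% for the WT noUV pair and 9.06% for the ASH1L-/- noUV pair. It was higher again, at 55.8%, in the 3757 sites held by all 4 UV libraries and no unchallenged one, and it was 37.9% at sites of all 8 libraries. The 8323 sites shared by exactly 1 WT 3h and 1 ASH1L-/- 3h library had a match in 29.6%, so the members lay between the 2 kinds of sites that both irradiated genotypes held.

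The other 11 motifs stood near their share in all sites. Members had NFY (CCAAT) in 33.1%, RUNX (TGTGGT) in 23%, the CTCF core (AGGNGGC) in 22.9%, TEAD (GGAATG) in 18.2%, the p53 decamer in 8.85% and SP/KLF (GGGCGG) in 8.30%. All sites had 33.5%, 24.0%, 23.7%, 19.3%, 8.60% and 8.58%. ATF4 (TGATGNAA), E-box (CACGTG), FOX (TGTTTAC), ETS (CCGGAAG) and CRE (TGACGTCA) matches were found in 5.86%, 4.37%, 3.79%, 1.10% and 0.172% of members, against 5.28%, 4.42%, 4.13%, 1.6% and 0.26% of all sites. All were searched on both strands, and none of them contains the AP-1 sequence.

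**Figure D4:**
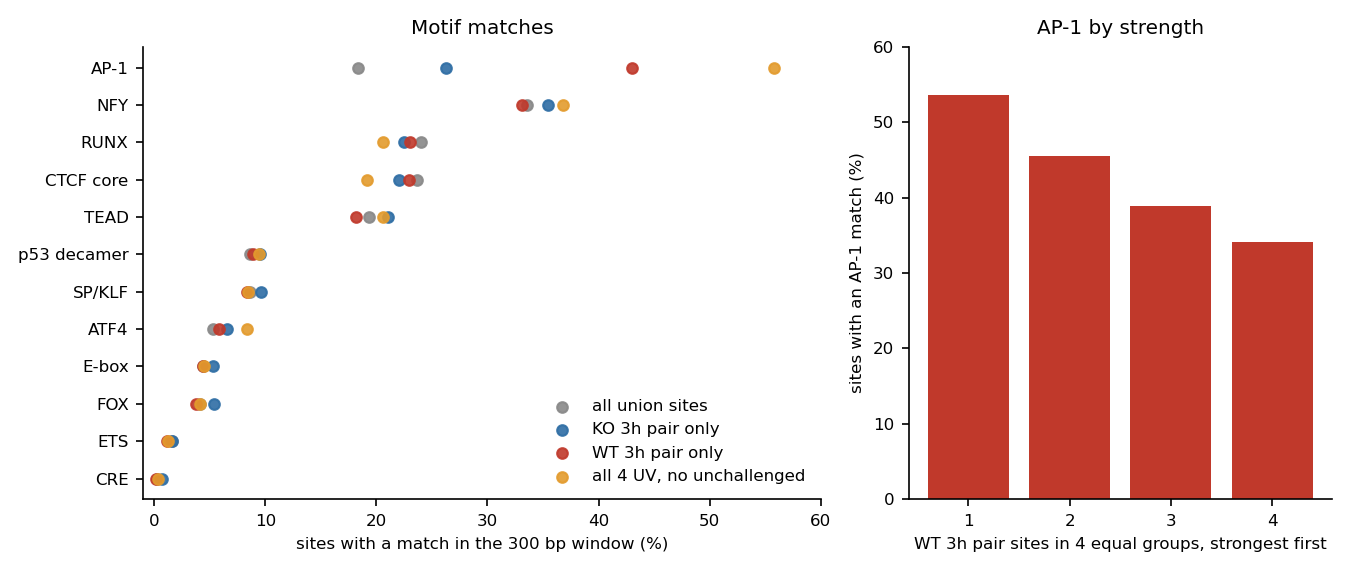
Left, percent of sites with a match to each of 12 motifs in the 300 bp window, for the sites of the WT 3h pair only (red), the ASH1L-/- 3h pair only (blue), all 4 UV libraries and no unchallenged one (orange) and all sites (grey). Right, percent of the WT 3h pair sites with an AP-1 match in 4 equal groups by strength. AP-1 spreads the 4 sets from 18.3% to 55.8%, and among the members it falls from 53.6% in the strongest group to 34.2% in the weakest.

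The AP-1 share rose with the strength of a member. With the members cut into 4 equal groups it was 53.6% in the strongest (726 members) and 45.6%, 38.9% and 34.2% in the following ones, while the GC share went from 45.7% to 50.6%. Sites of all 4 UV libraries had more matches than members in equal ranges of percentile in the weaker list. They had 39% against 33.5% below percentile 10 and 53.7% against 48.6% between percentiles 30 and 40. Sites of all 8 libraries had fewer, with 16.2% and 23.1% in these ranges. Above percentile 40 the shares were 62.5%, 56.0% and 39.2% for the 3 sets in this order. That range is wide and the sets differ in strength within it, since only 6 members lay above percentile 75 in both lists. The members' share was above that of the ASH1L-/- 3h pair in each of 5 ranges of GC, from 54.7% against 43.5% below 40% GC to 19.7% against 11.1% above 55% GC. These ranges do not match the members and the ASH1L-/- 3h pair for strength, which was not compared between them.

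Promoter members had an AP-1 match less often than the other members, in 18 of 122 (14.8%) at a mean GC of 60.1%. Among all sites of at least 55% GC, 10.3% had a match, against 19.7% of the members in that range. The share at promoters over all sites was not counted. Gene-body members had an AP-1 match in 40.7% and intergenic members in 47.8%. Within the windows, 1464 matches were found, of which 1055 (72.1%) had a C or G at the centre and 409 an A or T. Counting only the former, 33.6% of members, 19.0% of the ASH1L-/- 3h pair sites and 43.9% of the sites of all 4 UV libraries had a match. The match lay beside the summit more often than on it: 298 matches (20.4%) were centred within 50 bp of the summit, where an even spread over the window would place 34.4%. The corresponding shares were 21.3% at sites of all 4 UV libraries, 29.2% at the WT noUV pair and 24.9% over all sites.

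Across the 28 pairs, the highest AP-1 shares belonged to pairs with WT 3h replicate 2. The WT 3h pair had the highest share, 43.1%, and the next 3 joined that replicate with ASH1L-/- 3h replicate 1 (35.9%), ASH1L-/- 3h replicate 2 (35.1%) and WT noUV replicate 2 (27.5%). Pairs of WT 3h replicate 1 with the ASH1L-/- 3h libraries had 17.5% and 18.6%. The sites held by a single library, which no member overlaps, had an AP-1 match in 26.7% for WT 3h replicate 2 and 11.9% for replicate 1, in 13.6% and 13.3% for ASH1L-/- 3h, in 9.11% and 10.8% for WT noUV, and in 8.42% and 9.37% for ASH1L-/- noUV. All 4 UV libraries lay above all 4 unchallenged ones, at 16.4% ± 6.93 against 9.41% ± 0.981 (SD, n = 4 and 4), a difference of 6.96 percentage points (exact permutation test, two-sided, p = 0.0286, the smallest p this design allows). This test was chosen after seeing the data. The lists also differed in strength and in size. Median fold enrichment was 3.68 and 5.06 in WT 3h and 3.99 and 3.47 in ASH1L-/- 3h. In WT noUV it was 3.23 and 3.29, and in ASH1L-/- noUV 2.57 and 3.71. Single-library sites numbered 28944 and 18943 in WT 3h and 23889 and 41000 in ASH1L-/- 3h. The WT noUV libraries had 55135 and 53004, and the ASH1L-/- noUV ones 71727 and 38715. The part of list strength and size in the UV difference was not tested. Without WT 3h replicate 2 the difference was 3.51 points (exact permutation test, p = 0.0571, the smallest p that 7 libraries allow). The WT 3h libraries lay on both sides of the ASH1L-/- 3h libraries. With WT 3h replicate 2 left out, so that sites of replicate 1 absent from the other 6 libraries were counted, the AP-1 share was 15%, and it was 28.9% with replicate 1 left out. The part of WT 3h replicate 2 in the AP-1 share of the members was not tested.

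The chromosomes did not share the members evenly. Chromosome X held 95 members (3.27%, against 1.28% of all sites) and chromosome 13 held 89 (3.07%, against 1.38%), which is 2.56 and 2.23 times their share of all sites. Of the 89 on chromosome 13, 15 lay at chr13:95000001-100000000. The lowest ratios were 0.68 on chromosome 15 and 0.704 on chromosome 2. Against the sites that both WT 3h libraries held, of which 2.35% lay on chromosome X and 1.98% on chromosome 13, the excess was smaller. The sites of the ASH1L-/- 3h pair had 1.92 times the share of all sites on X and 1.77 times on 13. Of the sites of all 4 UV libraries and no unchallenged one, 3.62% lay on X, above the members, and 1.86% on 13, below them. U2OS cells have a rearranged genome, and copy number was not measured here.

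**Figure D5:**
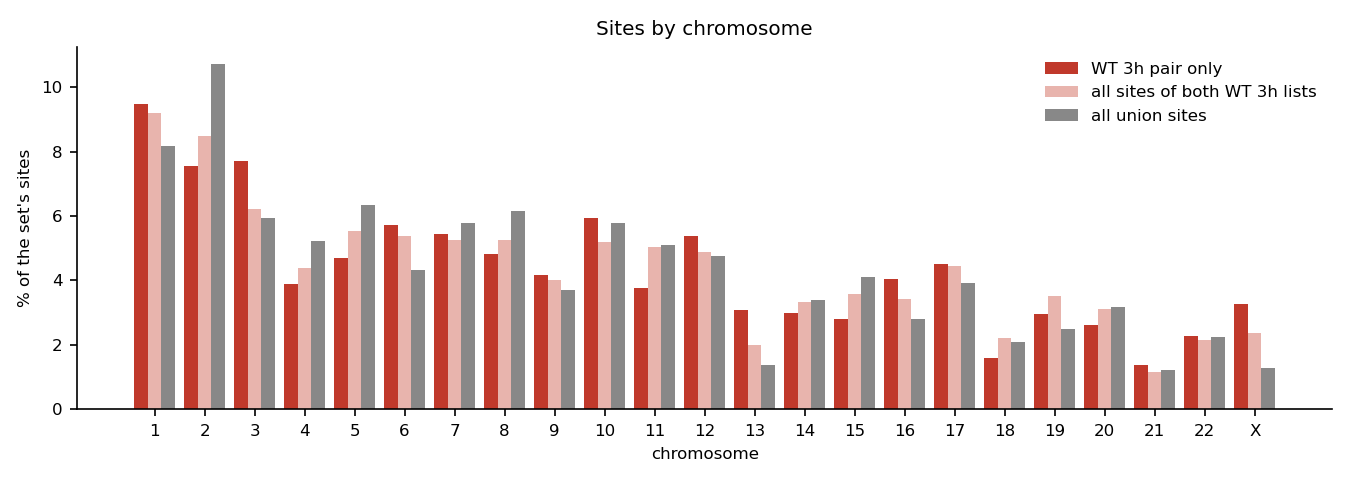
Percent of each set's sites on each chromosome, for the sites of the WT 3h pair only (red), all sites of both WT 3h lists (pink) and all sites (grey). Chromosomes X and 13 stand out, with 3.27% and 3.07% of the red sites against 1.28% and 1.38% of the grey ones.

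The first member, in an intron of NFKB1 (chr4:102564185-102564861), had a fold enrichment of 10.4 and 12 in the WT 3h replicates. Its pileups were 39 and 45 reads, and it stood at percentiles 88.4 and 83.1 of the lists. The nearest region of ASH1L-/- 3h was 55053 bp away in replicate 1 and 55648 bp in replicate 2, and in WT noUV it was 9483 and 28373 bp away. In ASH1L-/- noUV it was 49991 and 55648 bp away, so the distances in ASH1L-/- cells were similar with and without UV. This was a site with strong signal in both irradiated WT libraries and no listed signal near it in ASH1L-/- cells, irradiated or not. Its AP-1 match, TGAGTCA, lay 85 bp from the summit.

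The third member (chr10:15013473-15014275) lay 18379 bp from OLAH, the gene of a thioesterase that releases medium-chain fatty acids, with 9.5-fold and 11.4-fold enrichment. The fourth (chr2:232229252-232229799) lay in an intron of DIS3L2, the gene of an exoribonuclease, with 7.29-fold and 10.8-fold enrichment. For the third, ASH1L-/- 3h replicate 2 had a region 3476 bp away, and for the fourth both ASH1L-/- 3h libraries had one at 774 bp. Neither had an AP-1 match in its window.

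The 8 members that followed had enrichments between 6.80-fold and 9.80-fold. They included introns of SAMD4A, which encodes an RNA-binding repressor of translation (chr14:54637985-54638487), of TPST2, a protein tyrosine sulfotransferase (chr22:26532420-26533138), and of CAP2, a regulator of actin (chr6:17431575-17432003). The other 5 were intergenic, 3 of them on chromosome X. Both sites nearest to MTMR8 (chrX:64536696-64537250 and chrX:64705494-64706095) were over 12 kb from any region of an ASH1L-/- 3h library, the closest at 12269 bp. Around the SAMD4A site, in contrast, unchallenged libraries had regions at 563 and 814 bp and ASH1L-/- 3h replicate 2 had one at 947 bp.

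Promoter members were weaker than the first 12. The strongest was at LRRC4 (chr7:128031920-128032333), which encodes a synaptic adhesion protein, at rank 95 with 4.49-fold and 5.72-fold enrichment. SLC6A2, the noradrenaline transporter, followed at rank 121 with 3.95-fold and 6.39-fold, then FAM151A, EIF4E1B, FAM237B, ABHD1, TSPAN16 and SCML2, a Polycomb-group gene, at rank 286 with 4.25-fold and 4.63-fold. The FAM151A and TSPAN16 sites held an AP-1 match and the other 6 did not. At ABHD1 all 6 other libraries had a region between 94 and 265 bp away, so the site is separate from theirs only by a short gap, whereas at SCML2 the nearest one was 39870 bp away.

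Members in genes of DNA repair and of the damage response were counted beside those in all genes. Members were found in or at 1409 of 19962 protein-coding genes (7.06%). Of 24 nucleotide excision repair genes, 2 (8.33%) held a member, with 1 in DDB1 and 2 in ERCC3, out of 267 sites in or at these genes (1.12%, against 0.53% of all sites). The DDB1 site, for a subunit of the UV damage sensor and its ubiquitin ligase, had 2.88-fold and 3.25-fold enrichment (chr11:61334523-61334703), overlapped TKFC as well, and lay 62 and 94 bp from regions of the ASH1L-/- 3h libraries. ERCC3, which encodes the XPB helicase of TFIIH, had a member at its promoter with 2.30-fold and 3.04-fold enrichment (chr2:127293384-127293819), where all 6 other libraries had a region between 125 and 164 bp away. Its other member, in an intron, had 2.43-fold and 2.45-fold enrichment.

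None of the 6 matched genes for ASH1L, its partners and the histone chaperone FACT held a member, out of 93 sites. Of 21 p53 target genes, 4 (19%, against 7.06% of all protein-coding genes) held 1 each, out of 180 sites (2.22%). These were SESN1 (3.12-fold and 3.81-fold) and SESN2 (2.38-fold and 2.94-fold), which encode stress-induced inhibitors of mTORC1, PPM1D (2.26-fold and 2.61-fold), a phosphatase that turns off p53 signalling, and PLK3 (2.02-fold and 1.66-fold), a stress kinase. CDKN1A and MDM2 held none. Of 14 AP-1 and immediate early genes, FOSL2 (1.76-fold and 1.86-fold) and MYC (1.98-fold and 2.11-fold) held 1 each (14.3% of these genes, and 4.08% of their 49 sites), at ranks 2891 and 2831 of 2903. These shares rest on at most 4 members a list and were not tested. The SESN1 site was the only one of these 6 that was over 10 kb from every region of the other libraries, at 11755 bp from the nearest.

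A stricter choice of regions selected partly other sites. A q-value of at most 0.01 in both WT 3h lists was met by 1581 members. With regions of q-value at most 0.01 alone, 3159 sites were held by the WT 3h pair and no other library, but 1581 of them (50.0%) had no region at all in the other 6 full lists. The rest overlapped a weaker region there, most often in ASH1L-/- 3h replicate 2 (677 sites, 21.4%), then in WT noUV replicate 2 (14.2%) and ASH1L-/- 3h replicate 1 (13.7%).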

How the data were processed

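Omni-ATAC-seq libraries were sequenced as paired-end reads. According to the study's methods and the submitters' processing notes, the authors trimmed reads with cutadapt 1.9.1, aligned them with Bowtie2 2.4.5 to hg38 without chromosome Y, and filtered duplicates, mapping qualities below 30, blacklisted regions and mitochondrial reads with SAMtools 1.7, bedtools 2.29.2 and Picard. Peaks were called per library with MACS2 2.2.7.1, without pooling replicates. The methods state default parameters, but the deposited lists reach down to a −log10 p of 2. The deposited values are the fold enrichment (a ratio to the local background of the same library) and the −log10 p and −log10 q of each summit. The deposited integer score was not used.

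Regions were merged and annotated with GENCODE 44 in python 3.11.15 (pandas 2.3.3, scipy 1.17.1). A site took its region of highest fold enrichment in each list. Pileup and background were solved from the fold enrichment and p, to within 0.1% of the p column or 0.01, for 98.6% to 100% of regions. Sites were placed by the summit, with promoters within 1 kb of a protein-coding gene's start. Motifs were counted in 300 bp. The named sites are the first 12 by the lower of the 2 percentiles, the first 8 at promoters, and all in or at the listed genes. The member ranked 2nd is not reported here. Other choices tried were q-value limits, percentile 75, equal list sizes, joining within 200 bp, coverage of the site, promoter definitions and leaving out each library. Presence calls come from lists with no counts per site in the other libraries, so no model across sites was fitted. Scripts were tested on simulated data. Members and lists were chosen with earlier results of these data known. The 2 tests were exact permutation tests over libraries, and the one on AP-1 was chosen after seeing the data.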

Additional observations from a re-analysis of the deposited data

How the results depend on the processing

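The number of sites held only by the WT 3h pair stayed within 1.5 times of 2903 under 10 of 14 alternatives. It was 594 above percentile 75 of fold enrichment. Only 6 of the 2903 members lay above percentile 75 in both lists, so most of these 594 sites are not members. Another list held a weaker region at most of them. Leaving out 1 library gave 3124 to 32554 sites. Without WT 3h replicate 1 or 2, where 1 list remains, the number was 22227 and 32554, and without ASH1L-/- 3h replicate 2 it was 4490. The ratio to the mixed UV pairs was 2.83 above percentile 75 and 0.935 to 1.48 when 1 library was left out, below 1 only without ASH1L-/- 3h replicate 1. It has no value without a WT 3h library. The intergenic share was 46.2% at a q-value of at most 0.01 and 45.1% to 48.3% with 1 library left out. The following were chosen after seeing the data. The AP-1 share was 47.4% at a q-value of at most 0.01, 71.5% above percentile 75, 45% where regions had to cover at least 50% of the site, 33.6% with a C or G at the centre of the match, and 15% to 45.3% with 1 library left out. It was 28.9% without WT 3h replicate 1 and 15% without WT 3h replicate 2. The 71.5%, like the ratio of 2.83, describes the 594 sites above percentile 75, most of which are not members. The UV difference in the AP-1 share of single-library sites was 3.51 to 8.44 points with 1 library left out, each with p = 0.0571, the smallest p that 7 libraries allow in an exact permutation test. The cause of these changes was not tested. The planned overlap of 50% of a region is always met, since a region lies inside its site, and coverage of the site was tried instead. With libraries of the same genotype and replicate number paired as a replicate block, that UV difference of 6.96 points was above 0 in 4 of 4 pairs (exact permutation test over signs, p = 0.125, the smallest p that 4 pairs allow). The differences in presence between replicates correlated at −0.0014 to 0.0297 between groups over all sites. The highest value was that of WT 3h with ASH1L-/- 3h. Sites held by 1 library alone enter these values, and whether libraries of equal number shared a batch was not tested. The test of nearby regions, which no p below 0.05 can come from, was not paired, and the other values come from no test. At a summit pileup of 7, the lowest among members, a few reads decide whether a region is listed.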
